A study of Homo sapiens with 6 samples.

Results

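Clusters of IGF2BP3-bound RNA that lay within coding sequence were examined in HCT116 cells, a human colorectal carcinoma line of the genotype Tet-OsTIR1-PURO. A cluster, a stretch of overlapping reads with T-to-C conversions, was called coding-only when it overlapped a GENCODE release 44 coding segment on its own strand by at least 1 nt and overlapped no annotated 5′UTR or 3′UTR of any transcript on that strand. Of the 244620 clusters of the 5 IGF2BP3 libraries, 28156 were coding-only. All cells had received 4-thiouridine (100 µM, 15 h) before crosslinking by long-wave UV. A Proteintech antibody against IGF2BP3 was used with RNase I, at in-lysate/on-beads concentrations of 0.05/0.05, 0.1/0.025 and 0.05/0.025 U/µL, and with RNase T1, at 1/1 and 0.25/0.25 U/µL, while an IgG control had RNase I at 0.1/0.025 U/µL. Where 5 values follow each other below, they stand in this order of the IGF2BP3 libraries. Each condition had 1 library and no replicate, so that differences between single libraries have no replicate check. The study describes this polyclonal antibody as partly recognizing IGF2BP2. Its methods give electroelution as the gel extraction where RNase I was at 0.05/0.05 U/µL or RNase T1 at 1/1 U/µL, and crushed gel for the other IGF2BP3 libraries, so that gel extraction and RNase concentration cannot be told apart between them.

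IGF2BP3 belongs to a family of cytoplasmic RNA-binding proteins that carry RRM and KH domains, are active in the embryo and return in many tumors. The family is known for stabilizing mRNAs and controlling their translation and localization, and the KH domains recognize short CA-rich elements. Binding within coding sequence was described early for this family at the coding region determinant of MYC, a stretch that sets the half-life of that mRNA. Within a coding sequence a bound protein shares the RNA with elongating ribosomes. RNase T1 cuts single-stranded RNA after G, whereas RNase I cuts with little base preference.

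The coding-only regions that were strongest in all 5 libraries show the kind of sequence behind these clusters. Clusters of the 5 libraries that overlapped were merged, and the 12 eligible regions with the highest value in their lowest library were taken, with at most 1 per gene. The window of 30 nt at the center of the stretch covered in all 5 libraries is given for 7 of them, from 5 nuclear genes and from 2 genes of the mitochondrial chromosome, in the sense strand of GRCh38. Capitals mark TCAT and TCAC, which are UCAU and UCAC in the RNA, the pair of tetramers that led the densities described further on and that were chosen after those densities were seen.
QSER1, chr11:32931861-32931890, plus strand: tgctaccactTCACctttggtgcttcagga
ATN1, chr12:6935842-6935871, plus strand: ctggataTCATgctcccatggagcccccca
FAT1, chr4:186619862-186619891, minus strand: atactggagttatcaatgTCATagctcctc
SRCAP, chr16:30724347-30724376, plus strand: tttagcctcagctTCACcggtaccagctcc
DCBLD2, chr3:98799588-98799617, minus strand: cagccctccacatccactttcaaggctacg
MT-CO1, chrM:7091-7120, plus strand: atttcccctattctcaggctacaccctaga
MT-ND1, chrM:3298-3327, plus strand: cttaacaacatacccatggccaacctccta
Of the 12 windows, 5 held TCAT or TCAC on the sense strand, and 18.7% of the 22463779 windows of 30 nt in coding-only nucleotides did. The pair was chosen from densities in clusters that include these regions, so that this is a description and no test of a motif. The 7 windows shown are examples and do not give the share among the 12. The windows are the centers of long stretches, and no match says only that these letters are not in the window.

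The stretches lie at different places in their mRNAs. In the canonical transcript of QSER1, which encodes a glutamine- and serine-rich nuclear protein, the center of the stretch covered in all 5 libraries was at codon 206 of 1864, in an exon of 3693 nt. That of ATN1, which encodes the transcriptional co-regulator atrophin-1, was at codon 197 of 1190. In FAT1, which encodes a giant protocadherin of the cell surface, it was at codon 2237 of 4588, within the longest coding exon of 4068 nt. In SRCAP, the ATPase of a chromatin-remodeling complex, it was at codon 1646 of 3230, and in DCBLD2, a transmembrane receptor-like protein, at codon 700 of 775. The MT-ND1 window crosses the start of the coding sequence, at codon 2 of 318. MT-ND1 has no annotated UTR, and its window begins at position 3298, upstream of the gene start at 3307.

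The QSER1 region (chr11:32931739-32933658) had 582, 627 and 569.5 CPM in the RNase I libraries and 562 and 619 CPM in the RNase T1 libraries, where CPM are reads per 1000000 reads within clusters of the library. These 5 values lie close together, with no split between the enzymes. The FAT1 region (chr4:186618902-186620390) had 543.5, 371, 416, 303 and 279.5 CPM. Here each RNase I library was above both RNase T1 libraries. The MT-CO1 region (chrM:5878-7344), which encodes a subunit of cytochrome c oxidase, had 1041, 1367, 1928, 1142 and 2697 CPM, with the highest value in the shallowest library.

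Coding-only clusters were a minor part of each library, and a larger part with RNase I than with RNase T1. The RNase I libraries had 12951 of 90999 clusters (14.2%, 95% Wilson interval 14.0% to 14.5%) at 0.05/0.05, 4916 of 43385 (11.3%, 11.04% to 11.6%) at 0.1/0.025 and 4353 of 36795 (11.8%, 11.5% to 12.2%) at 0.05/0.025 U/µL. With RNase T1 there were 5071 of 59873 at 1/1 (8.47%, 8.25% to 8.70%) and 865 of 13568 at 0.25/0.25 U/µL (6.38%, 5.98% to 6.80%). The lowest RNase I share was above the highest RNase T1 share. The intervals cover counting error only, and reads of 1 cluster are not independent molecules of the library.

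The share of cluster reads in coding-only clusters followed the same division. It was 9.39%, 8.48% and 8.95% in the RNase I libraries at 0.05/0.05, 0.1/0.025 and 0.05/0.025 U/µL, and 6.45% and 5.95% in the RNase T1 libraries at 1/1 and 0.25/0.25 U/µL. The clusters held 2362467, 803490, 670712, 1157194 and 182448 reads in this order, which are sums within clusters and not library sizes. Without the mitochondrial chromosome, which took from 4.27% to 27.0% of the coding-only reads, the shares were 9.10%, 7.78%, 7.95%, 5.86% and 4.45%. The 4.27% was with RNase I 0.05/0.05. There MT-ND4, MT-CO3 and MT-CO2 had 2468, 2342 and 1311 exonic reads and 0 coding-only reads. In the other IGF2BP3 libraries 95.77% or more of the exonic reads of these genes were coding-only. The mitochondrial part thus depends on which clusters the rule admits. In the IgG library 0 of 25 clusters were coding-only, which allows a share of up to 12% (3 of 25), so that no difference from the 11.3% of its matched IGF2BP3 library was detectable at this depth. The 25 IgG clusters held 324 reads, and the matched IGF2BP3 library had 4916 coding-only clusters. Only canonical transcripts made 1 IgG cluster coding-only, of 15 reads in PABPC1, which encodes the major cytoplasmic poly(A)-binding protein.

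**Figure D1:**
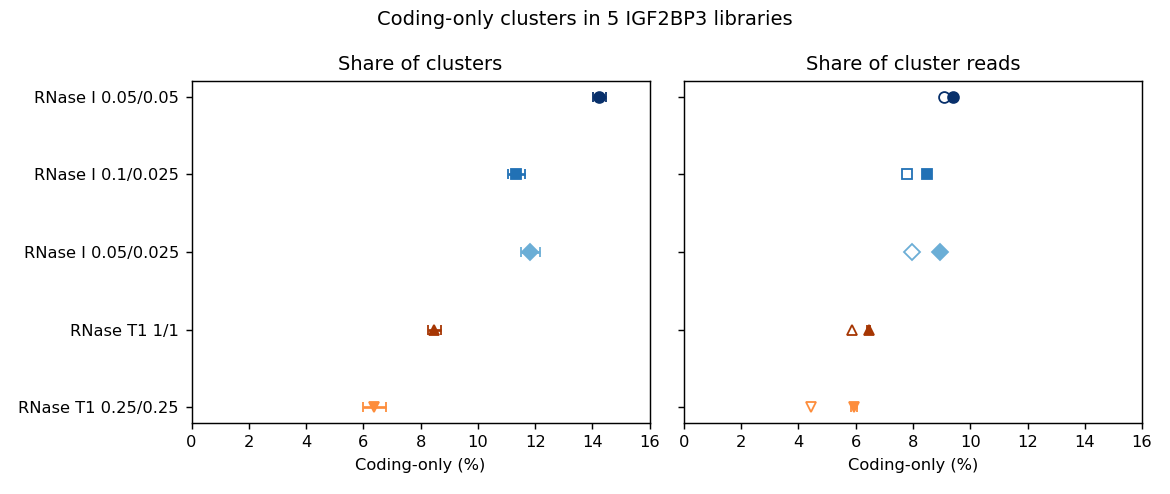
Share of clusters (left) and of cluster reads (right) that were coding-only, in percent, in the 5 IGF2BP3 libraries with RNase concentrations in U/µL as in-lysate/on-beads; filled symbols are all chromosomes with 95% Wilson intervals of counting error, open symbols on the right leave out the mitochondrial chromosome. The 3 RNase I libraries lie between 8.48% and 9.39% of reads and the 2 RNase T1 libraries at 5.95% and 6.45%.

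Per length the coding sequence was bound more thinly than the 3′UTR. Coding-only nucleotides took up 26675416 of the 35866923 annotated coding nucleotides (74.4%), the others being annotated as UTR in some transcript. Per kb of coding-only nucleotides there were 3.52, 3.18 and 3.36 CPM in the RNase I libraries and 2.42 and 2.23 CPM in the RNase T1 libraries. Clusters that overlapped 3′UTR and no coding sequence or 5′UTR, here called 3′UTR-only, had 13.8, 14.9, 14.2, 16.9 and 16.5 CPM per kb of such nucleotides. The 3′UTR-only density was thus 3.91 to 4.69 times the coding-only density with RNase I and 7.01 and 7.42 times with RNase T1. RNA abundance was not measured in these libraries, so that binding and expression of a gene cannot be told apart.

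The coding-only reads were spread over many genes. Coding-only clusters were found in 3369, 1685 and 1596 genes in the RNase I libraries and in 1958 and 408 genes in the RNase T1 libraries. They were found in 3787 genes in any library and in 331 genes in all 5, or in 928 genes when the RNase T1 0.25/0.25 library was left out. The deepest library of each enzyme, RNase I 0.05/0.05 and RNase T1 1/1, had 1692 genes in common, 50.2% of the first list and 86.4% of the second. The overlap of all genes with an exonic cluster was not counted, so that whether these shares are particular to coding-only genes was not tested. Between 36.7% and 63.0% of the genes of a library had a single coding-only cluster. The 10 leading genes held 14.6% of the coding-only reads with RNase I 0.05/0.05 and 35.9% with RNase T1 0.25/0.25 U/µL.

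FAT1 had the highest mean level among the genes with a coding-only cluster in all 5 libraries. Its coding-only clusters had 3857, 2751 and 3095 CPM with RNase I at 0.05/0.05, 0.1/0.025 and 0.05/0.025 and 2137 and 1589 CPM with RNase T1 at 1/1 and 0.25/0.25 U/µL (mean 2686 ± 873, SD over the 5 libraries, which differ in treatment). Each RNase I value was above both RNase T1 values. There were 57, 81, 86, 103 and 32 FAT1 clusters, which covered 84.2%, 59.3%, 59.5%, 35.9% and 9.26% of its 13764 coding nucleotides. Merged over the libraries they formed 54 regions, of which 11 were covered in all 5. Coding-only clusters held 75.8%, 80.1%, 81.9%, 77.0% and 64.4% of the reads of exonic FAT1 clusters, so that most of its reads lay in coding sequence in every library.

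MED13, QSER1 and SRCAP were also among the 10 leading genes. MED13, a subunit of the kinase module of the Mediator complex, had 936, 1247, 1045, 641 and 910 CPM in the order above. QSER1 had 941, 991, 908, 1038 and 762 CPM, the narrowest spread of the 10 (SD 105.1 about a mean of 928). SRCAP had 756, 795, 717, 391 and 871 CPM. For SRCAP 86.5% to 100.0% of the exonic cluster reads were coding-only, for QSER1 74.6% to 83.2% and for MED13 52.9% to 70.9%. DCBLD2 was bound in another way, with 934, 1062, 1261, 792 and 1403 CPM in coding-only clusters that were only 15.96% to 22.8% of its exonic reads. The rest of the DCBLD2 reads lay mostly in its 3′UTR, with 7298 reads in 3′UTR-only clusters with RNase I 0.05/0.05 against 9695 exonic reads in all.

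Some of the leading genes share sequence with other genes, and their values are uncertain. PABPC3, an intronless copy of a poly(A)-binding protein gene, had 1698, 2864, 3435, 644 and 3130 CPM. POM121, a transmembrane nucleoporin, had 1109, 1171, 1209, 724 and 1409 CPM, and its near-identical paralog POM121C had 1060, 1201, 1169, 702 and 1453 CPM. The POM121 and POM121C values follow each other from library to library, and how the authors' alignment divided reads between such copies was not tested. Leaving out PABPC3, POM121 and POM121C moved no summary value of the coding-only clusters by more than the spread between libraries.

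**Figure D2:**
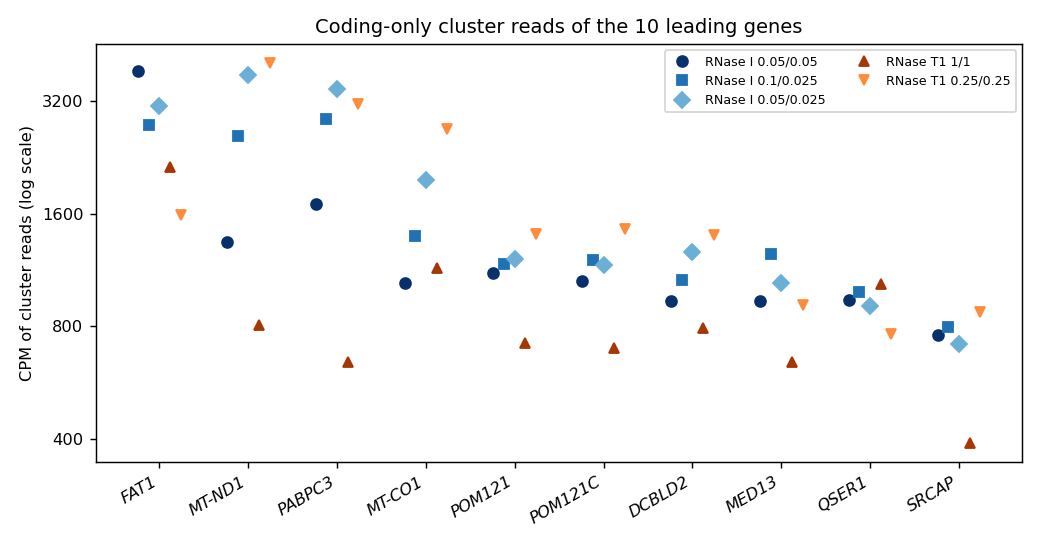
CPM of cluster reads (log scale) in coding-only clusters for the 10 genes with the highest mean over 5 libraries, 1 symbol per library. FAT1 ranges from 1589 to 3857 CPM, and RNase T1 1/1 U/µL (dark triangles) gives the lowest value for 7 of the genes, whereas QSER1 stays between 762 and 1038 CPM.

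Genes of the mitochondrial chromosome contributed the remaining leaders. MT-ND1, a subunit of respiratory complex I, had 1346, 2576 and 3757 CPM with RNase I at 0.05/0.05, 0.1/0.025 and 0.05/0.025 and 807 and 4040 CPM with RNase T1 at 1/1 and 0.25/0.25 U/µL, a 5-library spread that crosses both enzymes. MT-CO1 had 1041, 1396, 1969, 1146 and 2697 CPM. The conversions of the MT-ND1 clusters were few, with 0.179, 0.102, 0.0865, 0.242 and 0.0814 conversion events per read pooled over its clusters. Pooled over nuclear coding-only clusters there were 0.651, 0.663, 0.623, 0.557 and 0.580 events per read, above MT-ND1 in every library. Mitochondrial coding-only clusters other than those of MT-ND1 lay between, at 0.569, 0.524, 0.456, 0.472 and 0.335. In the RNase I 0.05/0.05 library MT-ND1 was a single cluster of 1004 nt. The MT-ND1 coding sequence has 956 nt, so that this cluster held nucleotides outside it. All reads of the cluster are counted in the values above.

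In most genes coding-only reads were a small part of the exonic reads. Among the 2331 protein-coding genes with at least 100 exonic cluster reads in each of these deepest libraries, RNase I 0.05/0.05 and RNase T1 1/1, the median share of exonic reads in coding-only clusters was 1.51% in the first and 0% in the second, and 908 genes (38.95%) had no coding-only read in either. More than 50% of the reads were coding-only in both libraries for 71 genes (3.05%). The highest shares belonged to mitochondrial genes without an annotated UTR, with 100.0% for MT-ND6, MT-CYB, MT-ND2, MT-CO1 and MT-ND1, and to the nuclear gene MUC12, also with 100.0% in both. PABPC3, uncertain for its sequence, had 99.8% and 100.0%. RLF, which encodes a zinc finger protein, followed with 98.5% and 100.0%, and NCOA6, a coactivator of nuclear receptors, had 96.4% and 96.1%. RLF had 140, 207, 212, 138 and 175 CPM and NCOA6 had 251, 195, 146, 191 and 137 CPM over the 5 libraries. RPSA2, a copy of the gene of a ribosomal protein, had 97.1% and 100.0% and is uncertain for its sequence.

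The mucin gene MUC12 split the libraries in another way. Its coding-only clusters had 339 CPM with RNase I 0.05/0.05 and 298 CPM with RNase T1 1/1 U/µL, in 53 and 39 clusters, and 0 clusters in the other 3 libraries. At the lower of these levels 239.5, 200.0 and 54.4 reads would be expected in the RNase I 0.1/0.025, RNase I 0.05/0.025 and RNase T1 0.25/0.25 libraries. MUC12 was the only gene with at least 50 CPM in both electroeluted libraries and 0 in the 3 crushed-gel libraries, and 0 genes showed the reverse. This split was looked for after the values were seen. The longest coding exon of MUC12 has 14889 nt, and mucins are known for tandem repeats. The split follows the gel extraction and the RNase concentration alike, which cannot be told apart. How reads that match several places were treated is not given in the sources used here, so that whether the 0 values mean no reads or reads not placed cannot be told.

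Lists of genes with known functions differed in how many members had a coding-only cluster. Of all 8373 protein-coding genes with an exonic cluster in the RNase I 0.05/0.05 library, 3367 (40.2%) had a coding-only cluster, and of 7265 with RNase T1 1/1 U/µL, 1958 (27.0%). Among genes of nuclear pore and transport, 18 of 18 did with RNase I 0.05/0.05 and 11 of 15 with RNase T1 1/1. The members of this list had a median of 3.28 kb of coding-only sequence against 0.942 kb over all protein-coding genes, and the share of genes with a coding-only cluster rose with that length, as given below for all genes. NUP153, a nucleoporin of the pore basket, had 157, 192, 134, 157 and 98.7 CPM and RANBP2, of the cytoplasmic filaments, had 119, 187, 77.5, 164 and 148 CPM. Among chaperones of cytosol and ER, 19 of 24 and 11 of 23 genes had coding-only clusters. HSP90AB1, the constitutive cytosolic HSP90, led that list with 408, 353, 480.1, 203 and 98.7 CPM, and HSPA8, the constitutive HSP70, had 177, 102, 137, 95.1 and 159 CPM.

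Among translation factors 13 of 18 and 11 of 17 genes had coding-only clusters. EEF2, the factor that moves the ribosome by a codon, had 623, 597, 552, 288 and 203 CPM, higher in each RNase I library than in both RNase T1 libraries. EIF4G2, a relative of the scaffold EIF4G1, had 416, 712, 686, 457 and 685 CPM with no such split. Among the actins, tubulins and their partners 8 of 14 and 5 of 14 did. TUBA1B, with 3055 exonic reads with RNase I 0.05/0.05, had none, and its canonical coding sequence has 0 coding-only nucleotides. Integrins, laminins and collagens had 6 of 13 and 2 of 13.

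The genes with very long coding sequences were not uniform. Of 30 and 25 with an exonic cluster, 19 and 16 had a coding-only cluster. HUWE1, a giant ubiquitin ligase, had 414, 345, 253, 195 and 104 CPM, with 85.3% or more of its exonic reads coding-only in each library. KMT2D, a histone H3 lysine methyltransferase, had 345, 279, 230, 156 and 65.8 CPM, and BIRC6, an inhibitor of apoptosis with ubiquitin-conjugating activity, 230, 240, 195, 189 and 43.8 CPM. AHNAK had 0 coding-only clusters in all 5 libraries, with 17670 coding-only nucleotides in its canonical coding sequence. DYNC1H1, the dynein heavy chain, also had 0, with 1463 such nucleotides. Both had few exonic reads, with 96, 5, 0, 62 and 0 for AHNAK and 47, 5, 5, 27 and 0 for DYNC1H1. HUWE1 and KMT2D had 1042 and 1443 exonic reads with RNase I 0.05/0.05. An absence of coding-only clusters in AHNAK and DYNC1H1 thus cannot be told apart from low recovery. Across all genes with an exonic cluster in the RNase I 0.05/0.05 library, 17.6% had a coding-only cluster where coding-only sequence was at most 500 nt and 76.0% where it was over 4000 nt. Clusters per kb of coding-only sequence were lowest in the shortest class, at 0.875. They were 1.15, 1.20 and 1.11 in the classes up to 1000, 2000 and 4000 nt, and 1.11 above 4000 nt.

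Of the transcripts known for a coding region determinant, MYC had coding-only clusters in all 5 libraries, with 76.6, 82.1, 89.5, 109 and 110 CPM. They were 10.1%, 24.6% and 16.1% of its exonic reads in the RNase I libraries and 35.1% and 20.0% in the RNase T1 libraries, so that the enzymes overlapped. BTRC had exonic and no coding-only clusters, and ABCB1 had no exonic cluster in any library. Of the paralogs, the IGF2BP3 mRNA had 1 coding-only cluster in 4 libraries, at 4.32 to 25.3 CPM, and IGF2BP2 had coding-only clusters in 2 libraries.

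Coding-only clusters were not placed evenly along the coding sequence. Cluster centers were counted in 10 equal parts of the canonical coding sequence and set against an even placement over the coding-only nucleotides of the same genes. In part 1, at the start, the ratio of observed to even was 0.494, 0.417 and 0.470 with RNase I and 0.497 and 0.384 with RNase T1. It rose to 1.28, 1.29, 1.29, 1.21 and 1.25 in part 9. Since clusters that reach a UTR are not members, the outer parts are affected by the rule, and the middle of the coding sequence was compared without them. In parts 6 to 9 the density was, relative to parts 2 to 5, 1.22, 1.33 and 1.31 times as high with RNase I at 0.05/0.05, 0.1/0.025 and 0.05/0.025 and 1.20 and 1.36 times with RNase T1 at 1/1 and 0.25/0.25 U/µL. The log2 ratio was 0.36 ± 0.08 (SD, n = 5 libraries) and above 0 in 5 of 5 libraries (exact sign-flip permutation, two-sided p = 0.063, adjusted p = 0.163 over 13 differences). With 5 libraries 0.063 is the smallest p this test can give.

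Exon junctions were sparsely covered. Nucleotides within 9 nt of a junction were covered at 0.371, 0.303 and 0.312 of an even placement with RNase I and 0.374 and 0.231 with RNase T1, and those at 10 to 19 nt at 0.480 to 0.688. Beyond 50 nt all libraries were above 1. Exons whose coding part was over 1000 nt held 25.8%, 28.99% and 26.4% of the covered nucleotides with RNase I, where 23.3%, 24.9% and 22.8% of the coding-only nucleotides of the same genes lay in such exons. With RNase T1 they held 29.6% and 35.02% against 25.8% and 27.1%. The aligner named for these data places reads without gaps, so that reads across a junction are not placed, and its part in the low coverage was not tested.

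**Figure D3:**
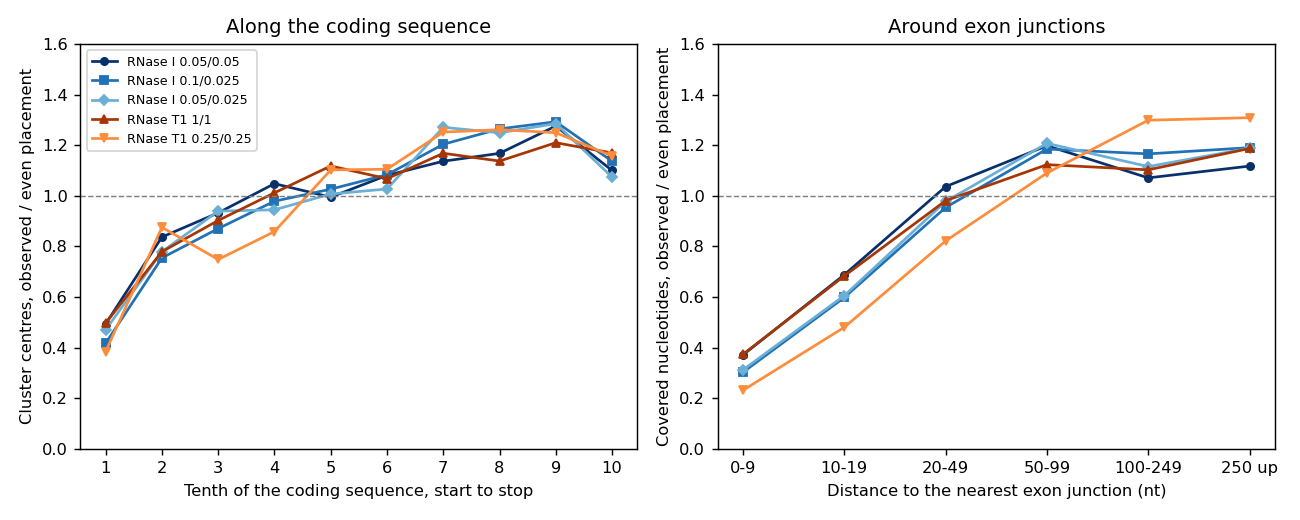
Left, ratio of observed cluster centers to even placement in each of 10 equal parts of the canonical coding sequence from start to stop. Right, ratio of covered nucleotides to even placement by distance to the nearest exon junction in nt. Each line is 1 library, and all 5 rise from below 0.5 in part 1 to above 1.2 in part 9 and from below 0.4 next to a junction to above 1 at 50 nt and more.

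Certain short sequence elements were denser in coding-only clusters than in the coding sequence of their genes, and much the same elements were so in 3′UTR-only clusters. The density of each tetramer in the clusters was compared with that in all coding-only nucleotides of the same genes, as a log2 ratio. UCAC led all tetramers in 4 libraries and was second with RNase I 0.05/0.05, at 0.64, 0.75, 0.70, 1.25 and 1.12, and UCAU had 0.66, 0.69, 0.65, 1.20 and 1.00. In 3′UTR-only clusters, against the 3′UTR nucleotides of their genes, UCAC had 0.50, 0.63, 0.60, 0.93 and 1.01 and UCAU had 0.60, 0.76, 0.73, 1.04 and 1.14, above the coding-only value in 3 libraries. Across all tetramers the ratios of the classes had a Pearson correlation of 0.935 to 0.985, as a description of tetramers that share libraries. With RNase T1 1/1 U/µL, UCAC had 10.3 copies per kb of cluster sequence against 4.32 in the same genes. UCAU or UCAC stood in 52.7%, 54.9%, 54.0%, 51.2% and 55.8% of the coding-only clusters, whose lengths differ between the enzymes, and in 55.4%, 57.5%, 56.5%, 46.9% and 54.0% of the 3′UTR-only clusters. Clusters are called from conversions at U, so that their content of U is not independent of the method.

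Of the 5 tetramers tested, CAUU, CAUA and UUAC had log2 ratios above 0 and GGAC below 0 in all 5 libraries. CAUU had 0.57, 0.64, 0.59, 1.06 and 0.82, CAUA 0.41, 0.43, 0.39, 1.03 and 0.73, and UUAC 0.42, 0.47, 0.43, 1.11 and 0.73. GGAC, the core of the m6A consensus, had -0.14, -0.21, -0.24, -0.81 and -0.90. Each of these differences had the smallest p that 5 libraries allow (exact sign-flip permutation, two-sided p = 0.063, adjusted p = 0.163). The study had reported CAUU as the strongest motif with RNase T1 and CAGU with RNase I, from these same libraries. The tests of these tetramers are therefore a description and no independent support. Clusters are called from conversions at U, which GGAC lacks. Coding-only clusters held at most 20.3% G against 26.4% in coding-only nucleotides of the genome, and GGAC is rich in that base. The ratios were not corrected for base content, so that whether m6A sites are avoided was not tested. CAGU had 0.37, 0.48 and 0.45 with RNase I and -0.53 and -0.16 with RNase T1 (exact p = 0.625, adjusted p = 0.625). In 3′UTR-only clusters, measured against the 3′UTR nucleotides of their genes, CAUU had 0.52, 0.65, 0.64, 0.98 and 1.02 and CAGU had 0.33, 0.42, 0.37, -0.47 and 0.01.

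These elements appeared in the codons inside the clusters. Codons that lay wholly within coding-only clusters were compared with all coding-only codons of the same genes, without the mitochondrial chromosome, in a comparison added after the data were seen. UCA, a serine codon, had the highest mean, with log2 ratios of 0.49, 0.66, 0.60, 0.91 and 0.97. With RNase T1 1/1 U/µL, UUC for phenylalanine and UCC were above it at 0.93 each. UUC had the next highest mean, with 0.47, 0.50, 0.45, 0.93 and 0.88. The serine codons UCU (0.44, 0.49, 0.51, 0.86 and 0.84) and UCC (0.44, 0.50, 0.41, 0.93 and 0.67) were also above 0 in all 5 libraries, whereas the serine codons AGU (-0.02, -0.04, -0.08, -1.11 and -0.68) and AGC (-0.05, -0.01, -0.07, -1.07 and -0.57) were below 0 in all 5. Codons of 1 amino acid thus differed with their letters. Both histidine codons were enriched, CAU with 0.45 to 0.86 and CAC with 0.37 to 0.84. Of the 61 codons, 21 were above 0 in all 5 libraries, and each of the 21 lacks G. RNase T1, which cuts after G, is part of this count. The valine codon GUC was above 0 in the RNase I libraries (0.22, 0.27 and 0.25) and below 0 with RNase T1 (-0.40 and -0.01). Other codons that hold G were below 0 with both enzymes, among them those of glutamate. The part of the enzyme in this pattern was not tested.

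At the other end stood codons rich in purines. GAG, for glutamate, had -0.84, -1.06, -1.02, -1.78 and -1.98, and GAA had -0.80, -1.02, -0.88, -1.77 and -1.72. The lysine codons AAG (-0.70, -0.84, -0.77, -1.12 and -0.93) and AAA (-0.64, -0.71, -0.64, -0.25 and -0.84) were below 0 as well. Summed over codons, histidine (mean 0.59 ± 0.21, SD, n = 5 libraries), phenylalanine (0.45 ± 0.18) and threonine (0.41 ± 0.17) led, and glutamate (-1.28 ± 0.48) was lowest. In nucleotides, coding-only clusters held 25.6% to 26.3% U and 18.96% to 20.3% G with RNase I and 27.5% to 28.0% U and 14.0% to 15.1% G with RNase T1, where coding-only nucleotides of the genome held 21.9% U and 26.4% G. A cluster ended in G in 94.5% and 91.6% of cases with RNase T1 and in 14.0% to 15.1% with RNase I.

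**Figure D4:**
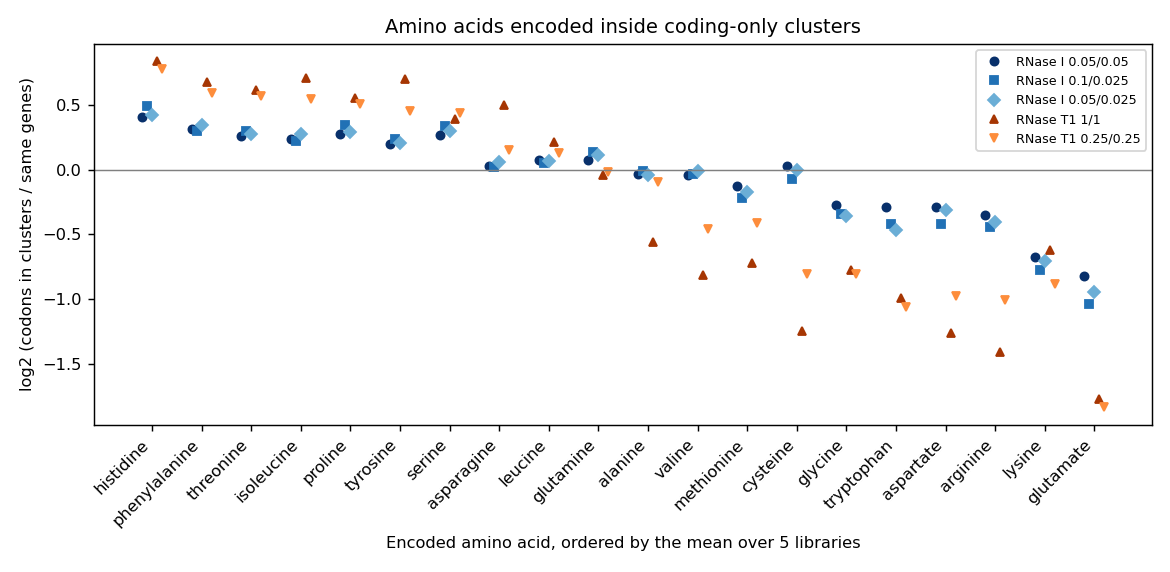
Log2 ratio of codons in coding-only clusters to codons of the same genes, summed by encoded amino acid and ordered by the mean, 1 symbol per library. Histidine is highest and glutamate lowest in the mean, and from histidine to tyrosine both RNase T1 libraries (triangles) lie above the 3 RNase I libraries.

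The deposited mode of a cluster, a single position per cluster, did not mark a T in coding-only clusters. It fell on a T in 24.1%, 26.4%, 25.8%, 19.4% and 22.9% of them, below the 25.6%, 25.9%, 26.3%, 28.0% and 27.5% of U in their sequence in 4 libraries and close to it in RNase I 0.1/0.025. In 35.6% to 40.7% of the clusters it was the first nucleotide. Shifting it by up to 4 nt to either side along the strand gave at most 32.8% T, so that no such offset puts it on a T. Codon positions of the modes that were a T of the reading frame are therefore no positions of crosslinks. Of these modes with RNase I 0.05/0.05, 25.5%, 38.1% and 36.3% lay on codon positions 1, 2 and 3, where the T of the same clusters gave 26.6%, 36.6% and 36.8%. The differences at position 1 did not share a sign over the libraries (exact sign-flip permutation, two-sided p = 0.5, adjusted p = 0.542, n = 5 libraries).

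In size and conversion coding-only clusters were close to 3′UTR-only clusters. Their median lengths were 53, 53 and 51 nt with RNase I and 32 and 39 nt with RNase T1, against 58, 55, 55, 34 and 38 nt. The difference was -2.4 ± 2.3 nt (SD, n = 5 libraries, exact sign-flip permutation, two-sided p = 0.125, adjusted p = 0.203). Among clusters of 10 to 19 reads the mean difference was 0.8 nt. The medians of conversion events per read were 0.667, 0.667, 0.625, 0.600 and 0.600 against 0.625, 0.667, 0.600, 0.538 and 0.579, higher in coding-only clusters in 4 libraries and equal in 1 (mean difference 0.030 ± 0.023, n = 5 libraries, exact p = 0.125, adjusted p = 0.203). Pooled over all reads, the mean difference was -0.010.

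Coding-only clusters held fewer reads than 3′UTR-only clusters by the median in each library. The medians were 8, 7, 7, 9 and 7 reads against 10, 8, 8, 11 and 8 in 3′UTR-only clusters. A cluster was counted as strict when it had more than 10 CPM of cluster reads and more than 0.5 conversion events per read. Strict were 12.1%, 33.9% and 41.1% of the coding-only clusters with RNase I at 0.05/0.05, 0.1/0.025 and 0.05/0.025 and 18.9% and 60.2% with RNase T1 at 1/1 and 0.25/0.25 U/µL. Of all clusters of the same libraries 17.6%, 39.1%, 45.7%, 21.3% and 59.3% were strict. The coding-only share less that of all clusters was -5.51, -5.19, -4.59 and -2.41 percentage points in 4 libraries and 0.974 with RNase T1 0.25/0.25 U/µL, where 10 CPM is only 1.82 reads (exact sign-flip permutation, two-sided p = 0.125, adjusted p = 0.203, n = 5 libraries).

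The recurrence of a cluster, its overlap with any cluster of another library, rose with its reads in the RNase I 0.05/0.05 library, and coding-only clusters stayed below 3′UTR-only clusters there at 2 to 49 reads. With RNase I 0.05/0.05 U/µL, 46.7% of the coding-only and 63.4% of the 3′UTR-only clusters were overlapped. In the other RNase I libraries these shares were 91.5% and 95.4% at 0.1/0.025 and 92.1% and 96.8% at 0.05/0.025 U/µL. In the RNase T1 libraries they were 79.5% and 79.6% at 1/1 and 99.7% and 99.5% at 0.25/0.25 U/µL. The difference was -5.06 ± 6.84 percentage points over 5 libraries and -2.16 without the RNase I 0.05/0.05 library (exact sign-flip permutation, two-sided p = 0.188, adjusted p = 0.271). At 5 to 9 reads 27.4% of the coding-only and 41.3% of the 3′UTR-only clusters of the RNase I 0.05/0.05 library recurred, and at 50 or more reads 100.0% and 99.9%. With RNase T1 1/1 the order was the reverse at 10 to 19 reads, with 87.2% of the coding-only and 82.1% of the 3′UTR-only clusters.

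**Figure D5:**
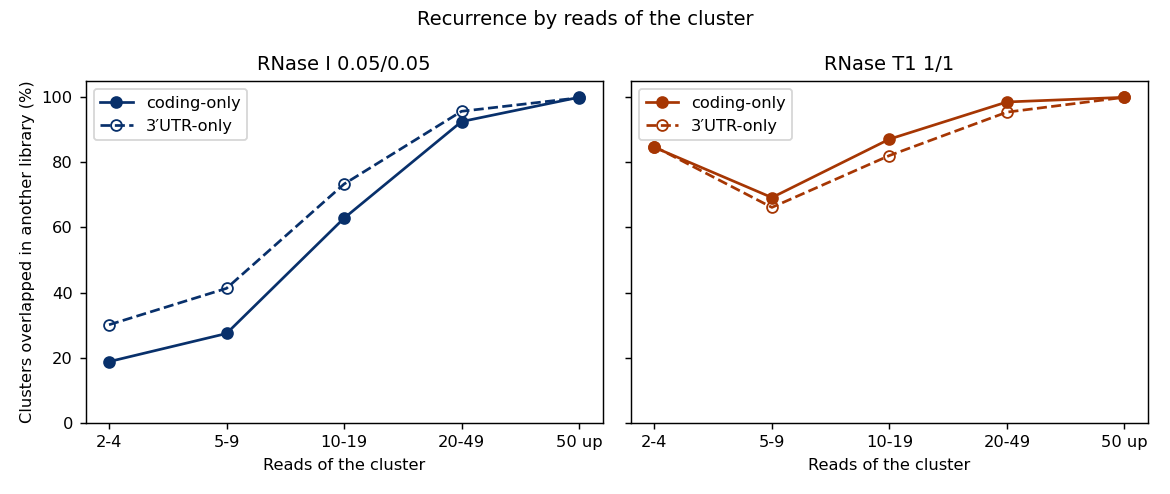
Percent of clusters overlapped by a cluster of any other library, by the reads of the cluster, for coding-only (filled, solid) and 3′UTR-only (open, dashed) clusters of the deepest library of each enzyme. Coding-only clusters lie lower at 2 to 49 reads with RNase I 0.05/0.05 U/µL and slightly higher at 5 to 49 reads with RNase T1 1/1 U/µL, and both classes reach about 100.0% at 50 reads.

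Merged over the libraries the coding-only clusters formed 14529 regions. Of these, 9002 (62.0%) came from 1 library, and 6949 of them from RNase I 0.05/0.05 U/µL, the deepest. In all 5 libraries there were 377 regions (2.59%) in 241 genes, which held 30.5%, 41.0%, 41.9%, 35.5% and 71.2% of the coding-only reads of the libraries. In all 3 RNase I libraries there were 2008 regions, of which 809 (40.3%) had no coding-only cluster with RNase T1. In both RNase T1 libraries there were 528, of which 32 (6.06%) had none with RNase I. The RNase I side is the deeper one, and the part of depth in these shares was not tested. Regions of 3′UTR-only clusters were not merged, so that these shares have no background beside them. For single clusters, RNase T1 1/1 overlapped 23.5% of the coding-only and 43.5% of the 3′UTR-only clusters of RNase I 0.05/0.05. In the other direction RNase I 0.05/0.05 overlapped 76.8% of both classes of RNase T1 1/1.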

How the data were processed

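Per the labels and the study's methods, the authors demultiplexed reads with bcl2fastq 2.20.0.422, removed adapters and duplicates with UMI-tools 1.1.1, filtered reads by length with Trimmomatic 0.30, placed these on GRCh38 by Bowtie 0.12.7 and used PARalyzer for the clusters of each library. What they deposited are counts of reads and of conversion events per cluster, not normalized. The deposited mode score, a fraction, was not used. Bowtie of this version aligns without gaps.

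From these, clusters were classed by GENCODE release 44. CPM are relative to the cluster reads of a library. Position, tetramers and codons were set against coding-only nucleotides of the same genes (coding sequences of at least 300 nt for position, at least 100 nt of coding-only sequence for tetramers, 30 codons for codons). Differences were tested over 5 libraries by the exact sign-flip permutation, with Benjamini-Hochberg adjustment over 13. Since these libraries differ in enzyme and dose, their SD is no replicate error. The tools were pysam 0.24.0, scipy 1.17.1, pandas 2.3.3, numpy 2.4.6 and matplotlib 3.10.9 under Python 3.11.15. The position and tetramer code was tested on simulated data.

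Codons, junctions, exon length, mitochondrial conversions, the gel split, shifts of the mode and the pair UCAU and UCAC were added after the data were seen. The members, gene lists and tests were chosen with earlier results of these data known. Genes were named as the 10 with the highest mean coding-only CPM in all 5 libraries, the 10 with the highest coding-only share of exonic reads in the lower of RNase I 0.05/0.05 and RNase T1 1/1, the genes of the 12 strongest shared regions, of coding-only IgG clusters and of the lists. Of these, the nucleoporin, chaperone, translation and long-gene lists are given by examples. The alternatives changed the transcripts, the overlap, the read and conversion minimums, depth, weights and backgrounds.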

Additional observations from a re-analysis of the deposited data

Results flagged for a closer look

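For 2 results the RNase I libraries all lay on one side of 0 and the RNase T1 libraries on the other, and the difference between the enzymes was not tested. The log2 ratio of CAGU in coding-only clusters was 0.37, 0.48 and 0.45 with RNase I at 0.05/0.05, 0.1/0.025 and 0.05/0.025 and -0.53 and -0.16 with RNase T1 at 1/1 and 0.25/0.25 U/µL. The study had already reported CAGU as a motif with RNase I and not with RNase T1, from these same libraries. The share of modes on the first codon position, less that of the T of the same clusters, was -1.06, -0.864 and -0.204 percentage points with RNase I and 2.71 and 8.20 with RNase T1. The deposited mode fell on a T no more often than the U content of the clusters gives, apart from 26.4% against 25.9% with RNase I 0.1/0.025, so that these are no differences in crosslinked positions. Cluster length, composition and depth differ between the enzymes as well, and their part in these differences was not tested.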

How the results depend on the processing

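Of 121 values of 16 results under other settings, 108 moved by less than the spread between the libraries (1 SD, or 1.5 times for a count), 9 moved by more and 4 changed sign. With canonical transcripts alone, the mean coding-only share rose from 7.84% to 12.6% of reads and from 10.4% to 16.1% of clusters, and the genes found in all 5 libraries from 331 to 546. The length difference to 3′UTR-only clusters, -2.4 nt, was -5.4 nt above 10 CPM, -27.6 nt weighted by reads and 0.8 nt among clusters of 10 to 19 reads. The difference in conversion events per read changed from 0.030 to -0.010 when pooled. The second codon position changed from 0.591 to -0.688 percentage points against all T of the genes and to -0.470 weighted by reads. Against all genes in place of the same genes, the tetramer ratios moved to 1.09 (CAUU), 1.04 (CAUA), 1.08 (UUAC) and -0.85 (GGAC). The causes of these changes were not tested. Leaving out 1 library in turn kept the sign of each result, and the genes found in all remaining libraries ranged from 335 to 928. The settings without the mitochondrial chromosome, without PABPC3, POM121 and POM121C, and with 10 to 19 reads were chosen after the data were seen. No paired analysis was possible because each condition has 1 library.

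With 5 libraries no test reaches a p of 0.05, and the shallowest library, of 182448 cluster reads, shows only the strongest coding-only clusters. Membership depends on the annotation, since a coding exon that any transcript marks as UTR is left out. The deposited mode fell on a T about as often as or less often than the U content of the clusters gives, and no shift of up to 4 nt mends this, so that the codon positions carry no information on crosslinks.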
